A study of Homo sapiens with 9 samples.

Results

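Ribosome biogenesis factors are the proteins that transcribe, cut, modify and assemble ribosomal RNA in the nucleolus. The 40 factors described here were chosen by name: a gene belongs to the set when its name in the expression files is that of a listed factor, and the identifier with the highest mean level was used where a name repeated. All 40 names were present among the 60623 genes listed for each library. They comprise 5 genes of RNA polymerase I transcription, 6 of small nucleolar ribonucleoproteins, 2 nucleolar chaperones, 13 factors of the small and 14 of the large ribosomal subunit.

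RNA-seq was performed on 3 stable lines of U937, a human monocytic leukaemia cell line. They carried HA-tagged AML1-ETO (AE), HA-tagged ETO2-GLIS2 (EG) or only the empty vector (CTR), in a retroviral vector whose promoter is switched on by doxycycline, and each fusion line is a single puromycin-selected clone. RNA was taken at 0, 12 and 48 h of 5 µg/ml doxycycline (the labels give doxycycline as the treatment of the 0 h libraries too), with 1 library for each of the 9 conditions. A single library per condition gives no replicate error, so no p-value was computed. Every difference below compares libraries, and differences between cultures, clones and times of harvest cannot be told apart from effects of the fusion proteins.

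The making of a ribosome starts with RNA polymerase I, which copies the ribosomal DNA repeats into a long precursor. Small nucleolar ribonucleoproteins then guide methylation and pseudouridylation of this RNA, while the small subunit processome and the large subunit pre-particles fold and cut it, and export and final maturation follow in the cytoplasm. The pathway takes up a large share of the resources of dividing cells, and its genes are known targets of the transcription factor MYC, which binds the E-box CACGTG.

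To show what the promoters of these factors share, windows of 250 bases before to 50 bases after the start site were taken from RefSeq (GRCh38.p14). A window was at hand for 33 of the 40 factors, and 15 of these (45.5%) held an E-box. The share was 13.1% among 8129 genes with a mean level of at least 1 FPKM (fragments per kilobase of exon relative to the library total, the deposited unit), 8.77% among all 27305 genes with a window and 7.26% of all 35116 windows. Since CACGTG reads the same on both strands, searching either strand finds the same matches. The following stretches run from 40 bases before to 20 bases after the start site, 5′ to 3′ on the strand of the gene, with the E-box in capitals, and are shown because they hold the match for 10 of the 15 genes.
DDX21 (chr10:68956607-68956666, plus strand): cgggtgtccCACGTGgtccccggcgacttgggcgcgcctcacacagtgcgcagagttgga
UTP4 (chr16:69132609-69132668, plus strand): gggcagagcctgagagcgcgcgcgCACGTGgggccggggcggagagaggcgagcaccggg
NAT10 (chr11:34105589-34105648, plus strand): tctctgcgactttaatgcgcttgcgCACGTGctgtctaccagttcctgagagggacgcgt
UTP20 (chr12:101280065-101280124, plus strand): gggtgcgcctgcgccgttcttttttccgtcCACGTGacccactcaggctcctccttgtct
RRP9 (chr3:51941885-51941944, minus strand): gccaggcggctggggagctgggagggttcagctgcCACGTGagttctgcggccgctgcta
WDR43 (chr2:28894627-28894686, plus strand): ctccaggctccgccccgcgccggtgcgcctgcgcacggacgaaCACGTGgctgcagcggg
FBL (chr19:39846360-39846419, minus strand): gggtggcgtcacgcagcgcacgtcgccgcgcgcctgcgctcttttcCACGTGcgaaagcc
GNL3 (chr3:52685992-52686051, plus strand): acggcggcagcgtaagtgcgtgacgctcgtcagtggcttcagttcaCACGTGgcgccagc
PES1 (chr22:30591891-30591950, minus strand): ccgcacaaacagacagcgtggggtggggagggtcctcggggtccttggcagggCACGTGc
MRTO4 (chr1:19251765-19251824, plus strand): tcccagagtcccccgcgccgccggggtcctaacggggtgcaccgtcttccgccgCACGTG

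Of the 16 E-box matches, 15 lay within 50 bases of the start site on either side and 10 lay in the 50 bases after it. In DDX21, which encodes an RNA helicase, the match began 31 bases before the start, and in MRTO4, a factor of large subunit assembly, it began at base 15 after it. EBNA1BP2 held 2 matches, at -237 and at base 43. EBNA1BP2, DDX21 and GNL3 have 2 windows each, and a position is counted from the start site of the window that holds the match. The matches of EBNA1BP2 could thus be 1 site seen from 2 windows. BYSL, LTV1, NOP14 and NOP2 held theirs from base 16 on. Among 117 other ribosome biogenesis genes with a window, 28.2% held an E-box, and among 63 genes of cytosolic ribosomal proteins 6.35% did.

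Other motifs were searched on both strands. CTCGCGAG, the core of a palindrome known from promoters of housekeeping genes, was found in 3 factors (9.09%, against 2.72% of the genes at 1 FPKM or more). The ETS motif CCGGAAGT was found in 7 (21.2%, against 11%). The RUNX motif TGTGGT, which the AML1 part of AML1-ETO recognises, was found in 5 (15.2%, against 12.7%), and the GLIS motif TGGGGGGT in 0 of 33 (against 1.82%). These letters describe the windows and do not show that a protein was bound there. NOP58, NOLC1, RRP12, BOP1, DDX18, RRP1B and RRS1 are named only.

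The libraries held 15136398 to 18443639 reads on genes, as implied by the deposited values. The induced genes followed their labels within each fusion line. RUNX1T1, which encodes ETO, had 0.512, 22.2 and 28.7 FPKM at 0, 12 and 48 h in the AE line. GLIS2 had 2.39, 6.79 and 8.85 FPKM and CBFA2T3, which encodes ETO2, 4.1, 11.4 and 12.6 FPKM in the EG line. At 0 h RUNX1T1 had 115 reads in the AE line and 0 in the CTR and EG lines. GLIS2 had 4.76 and 5.6 FPKM at 0 h in the CTR and AE lines, above the EG line. The paper considers leaky expression of the fusion proteins before induction likely. Of 10 monocytic markers, 5 (SPI1, CD33, LYZ, CD4 and FCGR1A) were at 1 FPKM or more in all 9 libraries, whereas MPO, CD68 and CD14 were under 1 FPKM in all 9. The 12 markers of T cells, erythroid cells, epithelium and fibroblasts were under 1 FPKM throughout. Mitochondrially encoded genes took 6.69%, 4.26% and 4% of the reads at 0, 12 and 48 h in the CTR line, 6.14%, 3.51% and 2.54% in the AE line and 7.01%, 4.59% and 3.32% in the EG line. A smaller mitochondrial share raises the FPKM of other genes, and without these genes the changes from 0 h below would be 0.04 to 0.06 lower on the log2 scale.

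Most biogenesis factors were abundant. Their median level was 15.3 to 24.1 FPKM, between the 85.3 and the 91.3 percentile of the genes listed above 0. Summed over the 40 genes, the level was 1350, 1302 and 1179 FPKM at 0, 12 and 48 h in the CTR line. It was 1205, 1555 and 1046 FPKM in the AE line and 1153, 1355 and 991.1 FPKM in the EG line. The sum was therefore highest at 12 h and lowest at 48 h in both fusion lines, and highest at 0 h in the CTR line. Abundant genes weigh most in a sum, and in the CTR line NCL alone had 192, 149 and 118 FPKM. The median level in the CTR line was 20.5, 20.9 and 18.8 FPKM, and so highest at 12 h. In bulk RNA, fewer cells with a transcript and less of it per cell cannot be told apart.

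NOP2, which encodes a methyltransferase of the large subunit RNA, was the exception with 0.081 to 0.415 FPKM and 7 to 30 reads. It had 0.275, 0.324 and 0.111 FPKM at 0, 12 and 48 h in the CTR line, 0.142, 0.415 and 0.238 FPKM in the AE line and 0.081, 0.167 and 0.235 FPKM in the EG line. Exons of a gene on the same strand cover 54.4% of its exon bases in a GRCh37 annotation, and reads there cannot be assigned to either gene. The same limit holds for PPAN (49.2%, at 41 to 102 reads) and LTV1 (34.7%, at 172 to 448 reads). NOP2 stayed under 1 FPKM on average and is left out of the counts and medians of changes, which leaves 39 factors; it stays among the promoter windows.

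**Figure D1:**
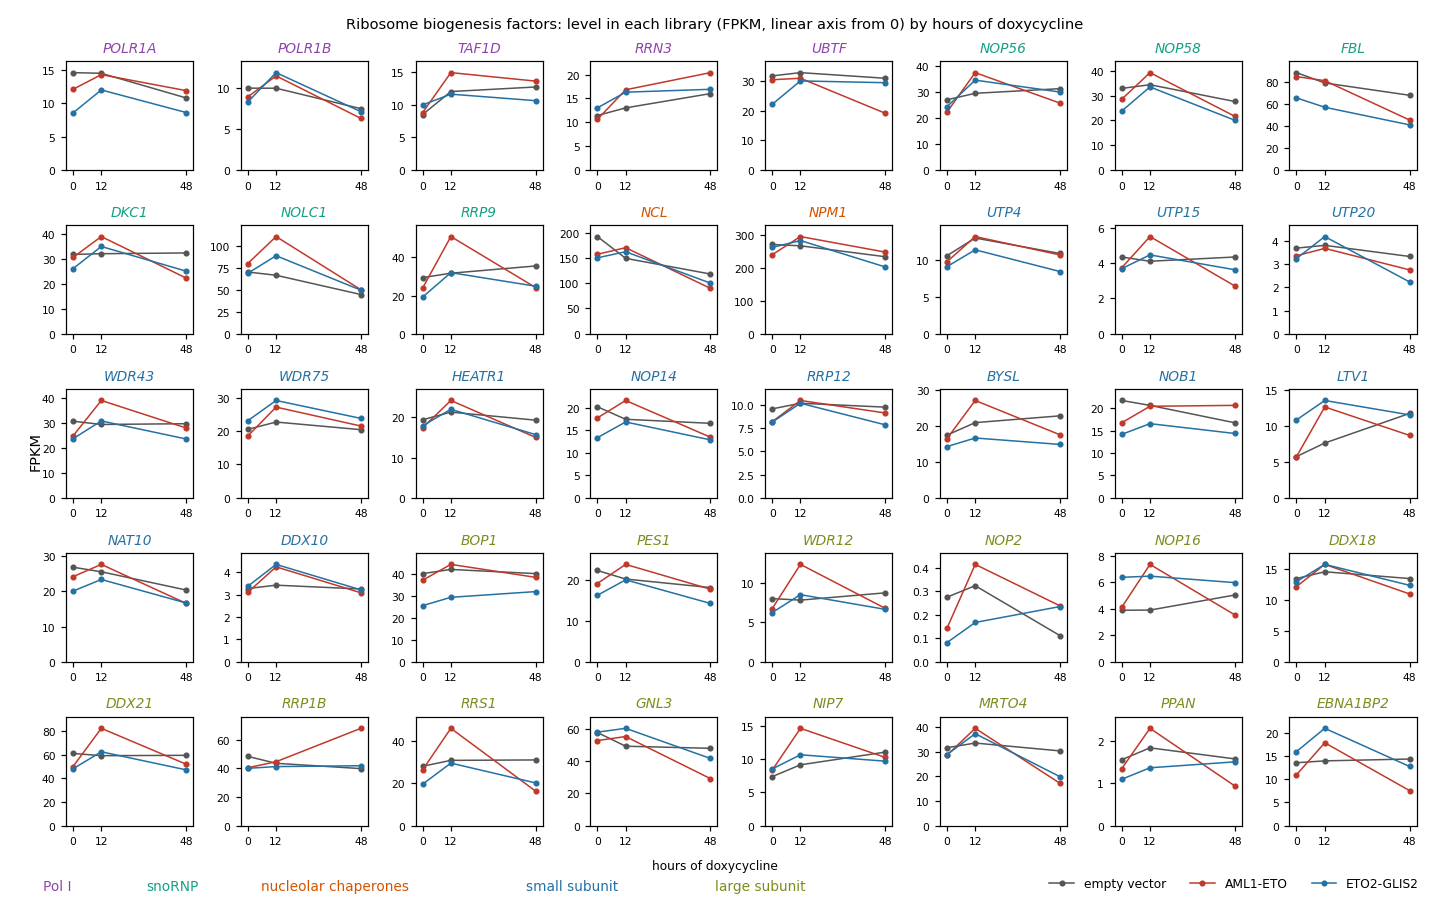
Level of each of the 40 biogenesis factors in FPKM (vertical axis, linear from 0) against hours of doxycycline (horizontal axis), 1 library for each point. Gene names are coloured by role. In most panels both fusion lines (AE in red, EG in blue) are highest at 12 h, whereas CTR (grey) is highest at 12 h for 12 of the 39 factors counted.

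After 12 h of doxycycline, the biogenesis factors were higher than at 0 h in both fusion lines. Changes are differences of log2(FPKM + 0.01), which for very low genes understates a change. The median change was 0.46 in the AE line (middle 50% of the factors 0.28 to 0.72) and 0.33 in the EG line (0.22 to 0.39), with 38 of 39 factors above 0 in each. In the CTR line it was 0.05 (-0.07 to 0.13), and this small value turned to -0.11 when libraries were scaled by the median ratio of all genes. That scaling lowers every change at 12 and 48 h by 0.12 to 0.17, and with it 33 of 39 factors were above 0 in each fusion line at 12 h. Changes are therefore also given relative to all genes.

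The median of all genes with a mean of at least 1 FPKM over both libraries was itself 0.14 in the CTR line, 0.18 in the AE line and 0.11 in the EG line at 12 h. The factors' median was thus 0.28 above that of all genes in the AE line and 0.22 above it in the EG line, and -0.09 relative to it in the CTR line. Above the median of all genes were 33 of 39 factors in the AE line, 34 in the EG line and 8 in the CTR line. These counts do not depend on the scaling.

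Changes of single factors were mostly modest in size. In the AE line at 12 h, 14 factors were past 1.5-fold higher and 0 past 1.5-fold lower, against 18% and 6.17% of all genes tested. In the EG line 2 were past 1.5-fold higher and 0 lower (8.92% and 3.39% of all genes), and in the CTR line 0 and 0 (14.4% and 3.77%). Among the factors counted, LTV1 and RRP9 were past 2-fold in either direction in the AE line (8.97% of all genes). In the EG line (4.49%) and the CTR line (7.53%) 0 factors were. The share past 1.5-fold higher was above that of all genes in the AE line and below it in the EG and CTR lines, and the share past 2-fold was below that of all genes in each line.

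At 48 h the median change of the factors was below 0 in each line. The median change from 0 h was -0.11 in the AE line (middle 50% -0.51 to 0.14), -0.05 in the EG line (-0.23 to 0.07) and -0.01 in the CTR line (-0.27 to 0.11). All genes had medians of 0.22, 0.16 and 0.16, and 6, 7 and 8 of 39 factors were above them. The factors' median lay at -0.32, -0.21 and -0.16 relative to that of all genes, in the same order. The comparisons at 12 and 48 h share the 0 h library of each line.

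Past 1.5-fold higher at 48 h were 4 factors in the AE line (RRN3 at 0.94, RRP1B at 0.75, TAF1D at 0.64 and LTV1 at 0.60), 0 in the EG line and 2 in the CTR line, against 31.7%, 22.4% and 20.4% of all genes. Past 1.5-fold lower were 7, 1 and 2 factors, against 18.5%, 6.24% and 7.4%. Among the factors counted, LTV1 in the CTR line, at 1.03, was the only change from 0 h past 2-fold at this time. Of all genes, 11% were past 2-fold in the CTR line, 28.6% in the AE line and 13.3% in the EG line.

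**Figure D2:**
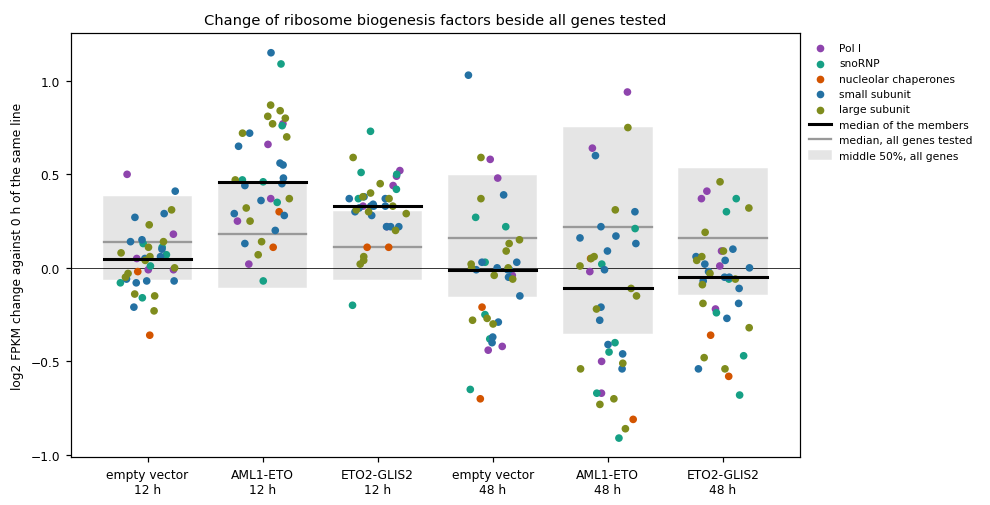
Difference of log2(FPKM + 0.01) from the 0 h library of the same line (vertical axis) for 39 biogenesis factors (points, coloured by role) in 3 lines at 12 and 48 h. Black bars are the factors' medians, grey bars and boxes the median and middle 50% of all genes tested; the medians at 12 h are 0.05, 0.46 and 0.33, and the first of them turns negative with median-ratio scaling.

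The direct comparison of 48 h with 12 h was added after the values had been seen. In the AE line the median difference was -0.66 (middle 50% -0.90 to -0.38), and 21 factors were past 1.5-fold lower (20.8% of all genes) and 8 past 2-fold lower (10.2%). The EG line had a median of -0.39 (-0.49 to -0.20) with 7 factors past 1.5-fold lower (6.14%) and 0 past 2-fold lower (2.14%). The CTR line had -0.08 (-0.21 to 0.06) with 0 past 1.5-fold lower (7.47%) and 0 past 2-fold lower (3.04%). All genes had medians of 0.02 in the AE line and 0.06 in the EG line.

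Of the 3 times, 12 h held the highest level for 35 of 39 factors in the AE line and for 34 in the EG line, against 32.3% and 30.3% of all genes. In the CTR line it did so for 12 (33.3% of all genes), and for 2 with median-ratio scaling. The 48 h library held the lowest level for 22 factors in the AE line, 23 in the EG line and 21 in the CTR line, against 34.9%, 29.9% and 30.9% of all genes. So the 12 h maximum differed between the fusion lines and the CTR line, whereas the number of factors lowest at 48 h was similar in all 3 with the deposited scaling. The latter number was not recomputed with median-ratio scaling, which lowers the 48 h values relative to 0 h and can change it.

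The CTR line also received doxycycline, and the change in a fusion line minus that in the CTR line is given here for each factor. At 12 h this difference had a median of 0.40 in the AE line against 0.02 over all genes, and 38 of 39 factors were above the median of all genes. In the EG line it was 0.29 against -0.02, and 35 factors were above the median of all genes. At 48 h the medians were -0.12 and -0.03, against 0.01 and 0.02 over all genes, and 13 and 16 factors were above the latter. Both differences share the CTR libraries. The 95% counting intervals given for single factors come from the reads behind each value and cover counting error only.

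**Figure D3:**
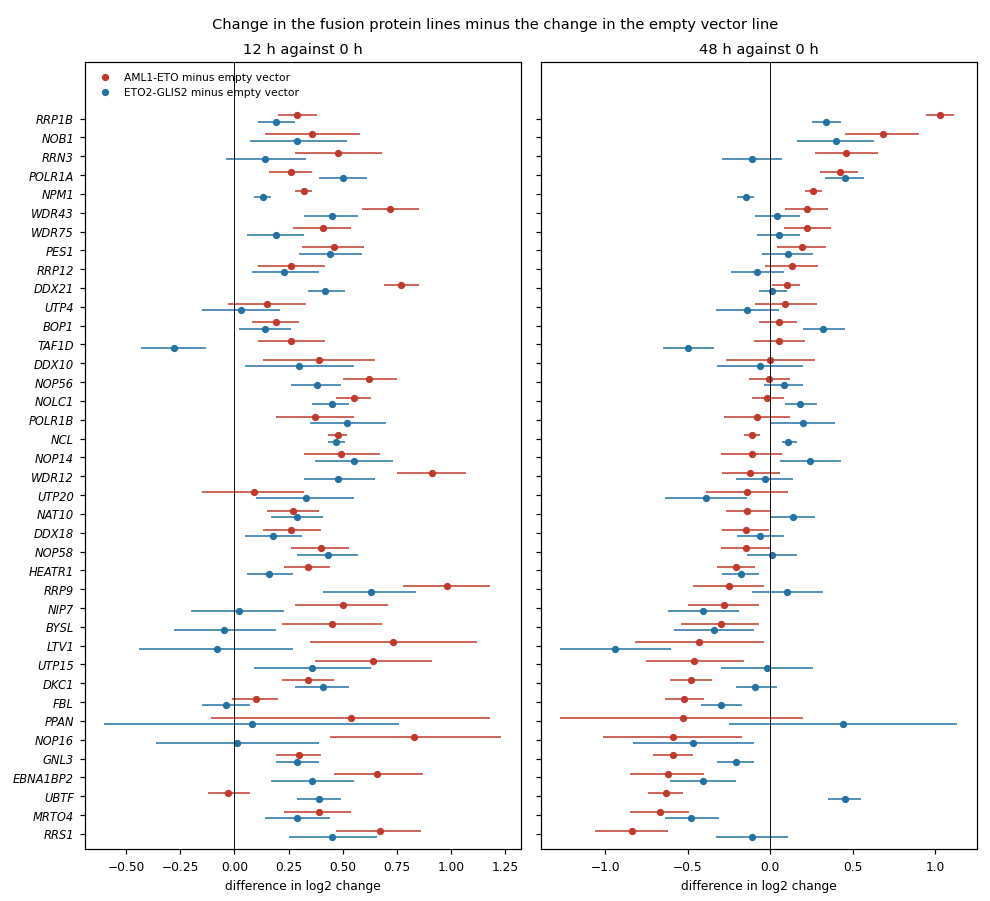
Difference in log2 change between a fusion line and the CTR line (horizontal axis) for 39 biogenesis factors (rows, ordered by the AE value at 48 h), at 12 h (left) and 48 h (right). Lines are 95% counting intervals without variation between cultures. At 12 h nearly all points are right of 0; at 48 h they spread from RRS1 at -0.84 to RRP1B at 1.03 in the AE line.

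Levels before induction differed between the lines and bear on these changes. At 0 h the AE line was below the CTR line for 35 of 39 factors, with a median log2 difference of -0.16 (0.01 over all genes). The EG line was below it for 30, with a median of -0.27 (-0.02 over all genes), from -0.78 for POLR1A to 0.91 for LTV1. Set against the CTR library of the same time, the median level at 12 h was 0.26 higher in the AE line and 0.08 higher in the EG line. At 48 h these medians were -0.30 and -0.26. At 12 h, 23 of 39 factors were at a higher level in the EG line than in the CTR line, and 35 were in the AE line. Level differences at 12 and 48 h were not computed over all genes. These medians and counts therefore have no background and are not read as particular to the factors.

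Among the genes of RNA polymerase I transcription, the fusion lines differed most in UBTF. This gene (ENSG00000108312), whose product binds the ribosomal DNA and which was the most abundant of the 5, had 31.7, 32.8 and 30.9 FPKM at 0, 12 and 48 h in the CTR line. It had 30.4, 30.9 and 19.1 FPKM in the AE line and 22.1, 30 and 29.4 FPKM in the EG line. The AE library of 48 h was the lowest of the 9, at a log2 change of -0.67 (95% counting interval -0.75 to -0.59), whereas the EG line changed by 0.41 (0.34 to 0.49) from the lowest of the 0 h levels. The change in the AE line minus that in the EG line was -1.08, the lowest of the 39 factors.

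RRN3 (ENSG00000085721), the initiation factor that carries the polymerase to the promoter, was the factor of this group that was highest at 48 h in all 3 lines. It had 11.4, 13 and 16 FPKM in the CTR line, 10.6, 16.8 and 20.4 FPKM in the AE line and 13, 16.3 and 16.9 FPKM in the EG line. The change at 48 h was 0.48 (0.35 to 0.62), 0.94 (0.81 to 1.07) and 0.37 (0.25 to 0.50). Near-identical pseudogenes of RRN3 and of NPM1 exist, and reads shared with them make these values uncertain.

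TAF1D (ENSG00000166012), a subunit of the selectivity factor SL1, had 8.48, 12 and 12.7 FPKM in the CTR line, 8.76, 14.9 and 13.6 FPKM in the AE line and 9.95, 11.6 and 10.6 FPKM in the EG line. It was higher at 48 h than at 0 h by 0.58 (0.47 to 0.70) in the CTR line and 0.64 (0.53 to 0.75) in the AE line, against 0.09 (-0.02 to 0.19) in the EG line. POLR1A (ENSG00000068654), the largest subunit of the polymerase, had 14.6, 14.5 and 10.8 FPKM in the CTR line, 12.1, 14.3 and 11.9 FPKM in the AE line and 8.55, 12 and 8.61 FPKM in the EG line. At 48 h it was lower in the CTR line, at a log2 change of -0.44 (-0.51 to -0.36), while the fusion lines were at -0.02 and 0.01, each with an interval holding 0. POLR1B (ENSG00000125630), the second largest subunit, had 10, 9.99 and 7.49 FPKM in the CTR line, 8.93, 11.5 and 6.3 FPKM in the AE line and 8.31, 11.9 and 7.12 FPKM in the EG line. Its 48 h library was the lowest of each line, at -0.42, -0.50 and -0.22 from 0 h.

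The 6 small nucleolar ribonucleoprotein genes had a median change at 12 h of 0.47 in the AE line, 0.46 in the EG line and 0.04 in the CTR line. NOLC1 (ENSG00000166197), a chaperone of these particles and the most abundant of the group, had 70.5, 66.8 and 44.8 FPKM in the CTR line, 80.2, 111 and 50.3 FPKM in the AE line and 69.1, 89.1 and 49.8 FPKM in the EG line. Both fusion lines were above every CTR library at 12 h, and all 3 lines were lowest at 48 h, at -0.65 (-0.72 to -0.59), -0.67 (-0.74 to -0.61) and -0.47 (-0.54 to -0.41) from 0 h.

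FBL (ENSG00000105202), fibrillarin, the methyltransferase of box C/D particles, did not share the maximum at 12 h. It had 88.4, 79 and 67.8 FPKM in the CTR line, 84.8, 81.1 and 45.3 FPKM in the AE line and 65.4, 56.9 and 40.9 FPKM in the EG line. Its level was lower at each later time in every line, and the change at 48 h was -0.38, -0.91 and -0.68, each with a counting interval below 0. It was the factor with the lowest change at 12 and at 48 h in both fusion lines, and its promoter holds the E-box shown above.

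NOP56 (ENSG00000101361), a core protein of the same particles, had 27.1, 29.6 and 31.4 FPKM in the CTR line, 22.3, 37.6 and 25.8 FPKM in the AE line and 24.4, 34.7 and 30.1 FPKM in the EG line. It stayed above 0 h at 48 h, by 0.22 (0.13 to 0.30), 0.21 (0.12 to 0.30) and 0.30 (0.22 to 0.38). RRP9 (ENSG00000114767), a protein of the U3 particle that directs the early cuts, had 29.4, 31.7 and 35.5 FPKM in the CTR line, 23.9, 50.9 and 24.2 FPKM in the AE line and 19.2, 32 and 24.9 FPKM in the EG line. In the AE line it was past 2-fold higher at 12 h, at 1.09 (0.95 to 1.23), and at 0.02 (-0.15 to 0.18) from 0 h at 48 h. The change at 12 h minus that in the CTR line was the highest of the 39 factors counted in both fusion lines. The values were 0.98 (0.78 to 1.18) and 0.63 (0.41 to 0.84).

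The nucleolar chaperones had the highest levels of all. NPM1 (ENSG00000181163), nucleophosmin, had 270, 266 and 233 FPKM in the CTR line, 239, 294 and 247 FPKM in the AE line and 261, 282 and 202 FPKM in the EG line. The highest of its libraries was 1.45 times the lowest. Its change at 48 h in the AE line, 0.05 (0.01 to 0.08), became -0.12 with median-ratio scaling and -0.01 without mitochondrially encoded genes. NCL (ENSG00000115053), nucleolin, had 192, 149 and 118 FPKM in the CTR line, 157, 170 and 89.7 FPKM in the AE line and 150, 162 and 100 FPKM in the EG line. At 48 h NCL was lower in all 3 lines, at changes of -0.70 (-0.73 to -0.67), -0.81 (-0.85 to -0.77) and -0.58 (-0.62 to -0.55). At 12 h it was at -0.36 in the CTR line and 0.11 in both fusion lines, values that became -0.05 and -0.01 with median-ratio scaling.

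The 13 small subunit factors had a median change at 12 h of 0.45 in the AE line, 0.33 in the EG line and 0.06 in the CTR line. WDR43 (ENSG00000163811), a processome protein and the most abundant of them, had 30.6, 29.3 and 29.6 FPKM in the CTR line, 24.7, 38.9 and 27.9 FPKM in the AE line and 23.6, 30.7 and 23.5 FPKM in the EG line. The CTR line was nearly flat, the AE line went from below it to above it at 12 h by 0.65 (0.56 to 0.75), and the EG line reached its level by 0.38 (0.29 to 0.47).

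NAT10 (ENSG00000135372), the cytidine acetyltransferase of the small subunit RNA, had 26.9, 25.6 and 20.4 FPKM in the CTR line, 24.2, 27.7 and 16.6 FPKM in the AE line and 20.1, 23.4 and 16.7 FPKM in the EG line. At 48 h it was lower in each line, at -0.40 (-0.49 to -0.31), -0.54 (-0.64 to -0.44) and -0.27 (-0.37 to -0.17). NOB1 (ENSG00000141101), the endonuclease that forms the end of the mature small subunit RNA, had 21.8, 20.7 and 16.8 FPKM in the CTR line, 16.8, 20.5 and 20.7 FPKM in the AE line and 14.2, 16.6 and 14.4 FPKM in the EG line. It was lower at 48 h in the CTR line, at -0.37 (-0.54 to -0.21), and higher in the AE line, at 0.30 (0.14 to 0.47). Of the exon bases of NOB1, 20.4% also lie in exons of the opposite strand, and reads from the strands cannot be told apart. The same holds for 18.4% of NIP7, 13.7% of EBNA1BP2, 23.1% of HEATR1, 20.7% of NOP14 and 18.6% of NOP16.

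LTV1 (ENSG00000135521), an export and assembly factor of the small subunit, had the highest change from 0 h at 48 h of the 39 factors counted in the CTR line. It had 5.71, 7.59 and 11.7 FPKM there, 5.7, 12.6 and 8.65 FPKM in the AE line and 10.8, 13.5 and 11.5 FPKM in the EG line. The EG line began at a level that the other lines reached only after doxycycline, and its change at 48 h minus that of the CTR line was -0.94 (-1.27 to -0.60), while the 2 lines differed by only -0.02 in level at that time.

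The large subunit factors had the highest median change of the role groups at 12 h in the AE line, 0.70 over 13 factors, against 0.31 in the EG line and 0.04 in the CTR line. DDX21 (ENSG00000165732), the most abundant of them, had 61.1, 59.2 and 59.5 FPKM in the CTR line, 50, 82.4 and 52 FPKM in the AE line and 48.1, 62.5 and 47.2 FPKM in the EG line. Only the AE library of 12 h stood far above the CTR line, at 0.72 (0.66 to 0.78) from its own 0 h. NIP7 (ENSG00000132603), which binds the precursor RNA, had 7.39, 9.18 and 11.1 FPKM in the CTR line, 8.36, 14.7 and 10.3 FPKM in the AE line and 8.55, 10.7 and 9.73 FPKM in the EG line. At 48 h it was above 0 h in all 3, by 0.59 (0.44 to 0.75), 0.31 (0.15 to 0.46) and 0.19 (0.04 to 0.33).

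RRS1, MRTO4, EBNA1BP2 and GNL3 were above the CTR line at 12 h and well under it at 48 h in the AE line. RRS1 (ENSG00000179041), which helps to place the 5S particle, had 28.1, 30.9 and 31.1 FPKM in the CTR line, 26.4, 46.1 and 16.3 FPKM in the AE line and 19.6, 29.6 and 20.2 FPKM in the EG line. Its change from 12 to 48 h was -1.50 (-1.66 to -1.34) in the AE line, the lowest value of the 39 factors, against 0.01 (-0.13 to 0.15) in the CTR line. Exons of another gene on the same strand cover 11.3% of its exon bases.

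MRTO4 (ENSG00000053372), a placeholder in the ribosomal stalk, had 31.7, 33.6 and 30.4 FPKM in the CTR line, 28.6, 39.6 and 17.2 FPKM in the AE line and 28.9, 37.4 and 19.9 FPKM in the EG line. Both fusion lines followed the same course here, with changes at 48 h of -0.73 (-0.87 to -0.59) and -0.54 (-0.67 to -0.41) from 0 h. EBNA1BP2 (ENSG00000117395), an early large subunit factor, had 13.5, 13.9 and 14.3 FPKM in the CTR line, 10.9, 17.8 and 7.51 FPKM in the AE line and 15.9, 20.9 and 12.7 FPKM in the EG line. It too was lowest at 48 h in both fusion lines, at -0.54 (-0.72 to -0.35) and -0.32 (-0.46 to -0.18), and within 0.09 of 0 h in the CTR line. GNL3 (ENSG00000163938), the GTPase nucleostemin, had 57.7, 49.2 and 47.9 FPKM in the CTR line, 52.7, 55.2 and 29.1 FPKM in the AE line and 57.9, 60.3 and 41.6 FPKM in the EG line. At 48 h it was lower in all 3 lines, and most so in the AE line at -0.86 (-0.95 to -0.77).

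RRP1B (ENSG00000160208; chromosome 21, 43659560 to 43696079 of GRCh38.p14), a nucleolar protein that partners protein phosphatase 1, went the other way. It had 48.2, 43.4 and 39.7 FPKM in the CTR line, 40.3, 44.5 and 67.8 FPKM in the AE line and 39.9, 41.1 and 41.7 FPKM in the EG line. The AE library of 48 h was far above the other 8, at 0.75 (0.69 to 0.81) from its 0 h, while the CTR line was at -0.28 (-0.34 to -0.21) and the EG line at 0.06 (-0.00 to 0.13). It was the only factor past 1.5-fold higher from 12 to 48 h in the AE line, at 0.61 (0.55 to 0.67).

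The remaining 17 factors are shown in the plot of levels. BOP1, PES1 and WDR12 form the PeBoW complex of large subunit processing. At 12 h WDR12 had 12.3 FPKM in the AE line against 6.69 FPKM at 0 h, the largest change of the large subunit factors counted (0.87), while BOP1 had 44.3 against 37.1 FPKM and PES1 23.9 against 19.2 FPKM. WDR12 thus changed more than BOP1 and PES1 in this comparison, whereas the counting intervals of BOP1 (0.17 to 0.34) and PES1 (0.21 to 0.42) overlapped. In the EG line at 12 h the intervals of WDR12 (0.33 to 0.57) and PES1 (0.20 to 0.41) overlapped as well. At 48 h in the AE line WDR12 was at 0.01, BOP1 at 0.05 and PES1 at -0.11 from 0 h.

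Factors with and without an E-box in the window had similar median changes at 12 h. At 12 h in the AE line the median was 0.45 (middle 50% 0.22 to 0.72) for the 14 with it, NOP2 left out, and 0.51 (0.31 to 0.76) for the 18 without it. In the EG line it was 0.33 for both. At 48 h the medians were lower for the factors with an E-box. They were -0.19 (-0.54 to 0.08) and -0.01 (-0.46 to 0.21) in the AE line. In the EG line they were -0.15 (-0.44 to -0.01) and 0.02 (-0.09 to 0.16), and in the CTR line -0.05 and -0.01. The middle 50% of both sets overlapped in each fusion line, and the difference was not tested. MYC itself had 40, 27.1 and 21.1 FPKM in the CTR line, 35.1, 49.9 and 13.8 FPKM in the AE line and 27.8, 27.5 and 18.1 FPKM in the EG line. It was highest at 12 h only in the AE line, and its part in the factors' changes was not tested.

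The other genes of the pathway were read from hand-written lists. At 12 h, 35 of 39 other small subunit factors were above the median of all genes in the AE line, 30 in the EG line and 13 in the CTR line, with list medians of 0.37, 0.28 and 0.01. For 43 other large subunit factors the counts were 31, 38 and 17 and the medians 0.43, 0.23 and 0.11. For 14 genes of the RNA exosome, which trims precursor RNA, they were 13, 11 and 7 and 0.32, 0.27 and 0.14. By these counts the shift at 12 h extended to other factors of both subunits.

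Among the shorter lists, 12 genes of cytoplasmic maturation and export had medians at 12 h of 0.29 in the AE line, 0.20 in the EG line and 0.04 in the CTR line. Those of 14 other snoRNP and modification genes were 0.31, 0.20 and -0.04, of 11 other RNA polymerase I transcription genes 0.37, 0.22 and 0.12, of 11 RNA polymerase III subunits 0.35, 0.18 and 0.17, and of 6 RNA polymerase II subunits 0.29, 0.05 and 0.07. Past 1.5-fold higher in the AE line, against 18% of all genes, were 11 of the 43 large and 7 of the 39 small subunit factors. The counts were 4 of 14 for the exosome, 4 of 14 for snoRNP and modification, 4 of 12 for maturation and export, 4 of 11 for other RNA polymerase I genes, 4 of 11 for RNA polymerase III and 0 of 6 for RNA polymerase II. Past 1.5-fold lower were 0 genes of these lists (6.17% of all genes).

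At 48 h the list medians in the AE line, against 0.22 over all genes, were -0.02 for small subunit factors, 0.16 for large subunit factors, 0.22 for the exosome, 0.22 for maturation and export, -0.32 for snoRNP and modification, 0.13 for other RNA polymerase I genes, 0.26 for RNA polymerase III and 0.05 for RNA polymerase II. In the EG line they lay between -0.11 and 0.13 (0.16 over all genes), and in the CTR line between -0.02 and 0.34 (0.16 over all genes). TCOF1, which encodes treacle, a nucleolar partner of RNA polymerase I, had the lowest change of the listed genes with a mean of at least 10 FPKM in the AE line, at 15.3, 13.1 and 7.08 FPKM (-1.11, -1.21 to -1.02); the CTR line changed by -0.90. In the EG line RUVBL2, an ATPase that assembles snoRNPs, was lowest at 31.2, 29.6 and 17.8 FPKM (-0.81, with -0.57 in the CTR line), and EXOSC8, an exosome subunit, highest at 22, 28.2 and 39 FPKM (0.82, with 1.20 in the CTR line).

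Cytosolic ribosomal protein genes, which encode the structural parts of the ribosome, had a median change like that of the factors at 12 h in the AE line and other medians in the EG line at 12 h and in the CTR and AE lines at 48 h. Their median change at 12 h was 0.39 in the AE line, -0.16 in the EG line and 0.08 in the CTR line. At 48 h it was 0.51, -0.02 and 0.62. Past 1.5-fold higher at 12 h in the AE line were 20 of 79 (18% of all genes), and at 48 h 31 of 79 in the AE line, 3 of 78 in the EG line and 40 of 78 in the CTR line, against 31.7%, 22.4% and 20.4% of all genes. Past 1.5-fold lower at 48 h were 0 in each line (18.5%, 6.24% and 7.4% of all genes). Of the listed genes with a mean of at least 10 FPKM, RPS12 had the highest change at 48 h in the AE line, at 1.21 (1.16 to 1.25), with 1.13 in the CTR line. Many processed pseudogenes share reads with these genes, so their values are uncertain. The factors' median change at 48 h thus lay at -0.16, -0.32 and -0.21 relative to all genes in the CTR, AE and EG lines. For ribosomal protein genes the median change was above that of all genes in the CTR and AE lines but not in the EG line. These are changes from 0 h and do not give levels. RPS12, for example, had 399 and 877 FPKM at 0 and 48 h in the CTR line and 786 and 790 FPKM in the EG line. Levels of this list at 0 h were not compared between the lines.

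**Figure D4:**
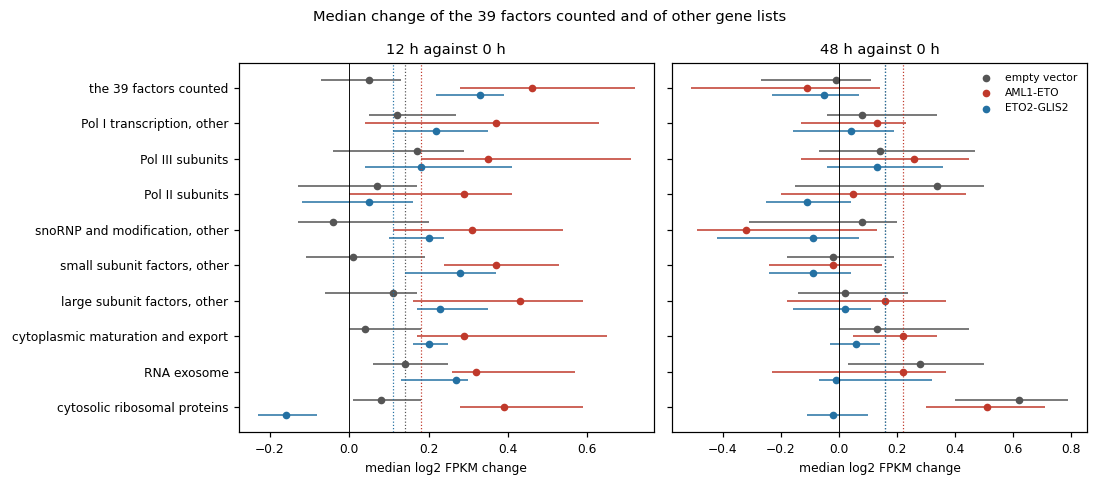
Median log2 FPKM change from 0 h (horizontal axis; points) with the middle 50% of the genes of each list (bars) for the biogenesis factors and 9 other lists, at 12 h (left) and 48 h (right). Dotted lines are the medians of all genes in each line. Ribosomal protein genes are at 0.62 and 0.51 at 48 h in the CTR and AE lines and at -0.02 in the EG line; with median-ratio scaling these are 0.47, 0.34 and -0.19.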

How the data were processed

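RNA-seq of 9 libraries (TruSeq RNA v2 kit, NovaSeq) was analysed. Per the labels and the methods of the study, the authors aligned reads to hg38 with HISAT2 (2.0.5), used SAMtools (1.7) for the alignments and HTSeq (0.9.1) with default settings for gene counts, and deposited FPKM. DESeq2 (1.22.2) also stands in the submitters' processing notes. The annotation version is not given in the sources used here. FPKM is relative to the library total, so a change in abundant genes shifts all others.

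Samples were grouped by the line and time in their titles. Reads were recovered from the deposited FPKM as whole multiples of what 1 read is worth, for 23888 (99.996%) of 23889 genes above 0 in at least 3 libraries, within the rounding of 6 significant digits. They give exact Clopper-Pearson 95% intervals for ratios of reads. Intervals for differences between lines are normal approximations from the read counts of the libraries compared. Both kinds of interval cover counting error only, since reads carry no molecular identifiers. The recovery was tested on simulated data. Changes were computed on log2(FPKM + 0.01), and genes with a mean of at least 1 FPKM over both libraries were counted past 2-fold or 1.5-fold. Python (3.11.15), numpy (2.4.6), pandas (2.3.3), scipy (1.17.1) and matplotlib (3.10.9) were used.

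The members and all gene lists were chosen with earlier results of these data known. Named in full are, per role, the factor with the highest mean and those with the lowest and highest mean change at 48 h; the 5 lowest and 5 highest differences from the CTR line in the AE line and the 3 and 3 in the EG line; factors past 2-fold from 0 h; and factors moving in opposite directions at both times in different lines. The comparison of 48 with 12 h, the time of the highest level, and the values given for BOP1, PES1 and WDR12 were added after values were seen. Exon overlaps come from a GRCh37 annotation covering 39 of the factors, and coordinates from RefSeq. Alternatives covered the scaling, pseudocount, filter, fold threshold, reference library and repeated names. The ChIP-seq data were not analysed here.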

Additional observations from a re-analysis of the deposited data

Results flagged for a closer look

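RRP1B was singled out because the CTR line and the AE line moved in opposite directions at both 12 and 48 h, each beyond its counting interval. The change at 48 h in the AE line minus that in the CTR line was 1.03 (95% counting interval 0.94 to 1.11), and at 12 h it was 0.29 (0.20 to 0.38). With median-ratio scaling the AE change at 12 h went from 0.14 to -0.02, so the opposite direction at 12 h depends on the scaling. The difference was not tested, because each condition has 1 library.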

How the results depend on the processing

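No paired analysis was possible because each condition has 1 library, and for the same reason no library was left out. Depth limits the low factors, NOP2 (7 to 30 reads) and PPAN (41 to 102 reads), and in no result does it cover variation between cultures. Each median was judged against a range taken from the ranked changes of the genes in its set. This range treats the genes as independent and reflects the spread between them, not an error of measurement. Summing identifiers of one name, a filter at 5 FPKM and factors with a mean of at least 10 FPKM moved no median beyond this range and no count by over 1.5 times. Leaving out LTV1, NOP2 and PPAN (chosen after seeing the data) moved no median either, but left 1 factor past 2-fold higher in the AE line at 12 h, and 0 past 2-fold and 1 past 1.5-fold higher in the CTR line at 48 h.

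Median-ratio scaling lowered all changes. The factors' median became -0.11 at 12 h in the CTR line, 0.30 in the AE line and 0.21 in the EG line, and -0.22 at 48 h in the EG line. Counts past 2-fold became 0 higher in the CTR line at 48 h, 0 higher in the AE line at 12 h and 2 lower in the AE line at 48 h. Counts past 1.5-fold became 9 and 1 higher at 12 h in the AE and EG lines, 1 and 1 higher at 48 h in the CTR and AE lines, and 13 and 6 lower at 48 h in the AE and EG lines. The number highest at 12 h in the CTR line became 2. List medians at 48 h became -0.17, -0.19 and -0.26 for other small subunit factors (CTR, AE and EG), -0.13 and -0.15 for other large subunit factors (CTR and EG), 0.05 for maturation and export (AE), -0.17 for the exosome (EG) and 0.47, 0.34 and -0.19 for ribosomal proteins. NPM1 in the AE line at 48 h turned from 0.05 to -0.12.

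Without mitochondrially encoded genes the same NPM1 change was -0.01, 0 factors were past 2-fold higher in the CTR line at 48 h, 1 and 2 were past 1.5-fold higher at 48 h in the CTR and AE lines, 1 was past 1.5-fold higher at 12 h and 4 were past 1.5-fold lower at 48 h in the EG line, and the median of ribosomal proteins there was -0.06. A pseudocount of 1 FPKM gave 0 past 2-fold higher and 1 past 1.5-fold higher in the CTR line at 48 h, 2 past 1.5-fold higher in the AE line at 48 h and 1 in the EG line at 12 h. With the fold threshold at 1.5 the counts from 0 h were those given above: 14, 4 and 7 in the AE line, 2 and 1 in the EG line and 2 and 2 in the CTR line. With no filter, NOP2 added 1 past 2-fold lower in the CTR line and 1 higher in the EG line at 48 h.

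Against the CTR library at 0 h (chosen after seeing the data), the EG medians were 0.09 at 12 h and -0.33 at 48 h, with 1 factor past 1.5-fold lower at 12 h and 2 higher and 10 lower at 48 h, and the AE line had 9 past 1.5-fold higher at 12 h and 13 lower at 48 h. Against the CTR library of the same time, the differences between lines were 0.26 and -0.30 for AE and 0.08 and -0.26 for EG at 12 and 48 h.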

Other observations

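Several factors carry genes of small nucleolar RNAs in their introns. The files list 30 such genes within 8 of the 40 factors on the same strand, of which 18 were listed at 0 in all 9 libraries and 6 were above 0 in all 9, with at most 19 reads in a library. In the CTR line, SNORD6 within TAF1D was at 4.21, 0.905 and 14.2 FPKM at 0, 12 and 48 h, and SNORA75 within NCL at 1.79, 0.482 and 1.9 FPKM. FPKM of genes this short rests on few reads, and a library preparation for longer RNA recovers them poorly, so no comparison was made.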
